A study of Mus musculus with 30 samples.

Results

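The cathepsins, the vacuolar proton pump, the lysosomal membrane proteins Lamp1 and Lamp2 and the transcription factor Tfeb were measured in CD11b+ myeloid cells from tumors, spleens, bone marrow and marrow cultures of mice. Genes were taken by symbol from the array annotation: every cathepsin except Ctsg, every subunit or accessory protein of the pump, and the 3 further genes. This gave 46 of the 18194 genes that had a probe set annotated to a single symbol. They comprised 21 cathepsins, 22 pump genes of which 2 encode accessory proteins, Lamp1, Lamp2 and Tfeb. Where a gene had several such probe sets, the one with the brightest average of the 30 arrays was used, and values are on the deposited log2 scale.

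The study set myeloid-derived suppressor cells, a mixed population of immature myeloid cells that dampen T cell responses, against CD11b+ cells of healthy mice. There were 10 groups of 3 arrays, each from cells enriched on magnetic beads for CD11b, the integrin chain Itgam carried by granulocytes, monocytes and macrophages. In BALB/c mice the cells of tumor bearers came from the spleen of mice with the GM-CSF tumor C26-GM, from the C26-GM tumor infiltrate and from the infiltrate of 4T1, a mammary carcinoma, and their reference was the healthy BALB/c spleen. In C57BL/6 mice they came from the infiltrates of EL-4, a thymic lymphoma, and MCA203, a fibrosarcoma, and their reference was the healthy C57BL/6 spleen. BALB/c marrow cells were grown for 4 days with GM-CSF and IL-6 or with GM-CSF and G-CSF, and their reference was fresh BALB/c marrow. Age, sex and genotype are not given in the sources used here. Nothing there states that the 3 arrays of a group came from separate animals or cultures, so the p-values measure only the spread between these samples. Tumor infiltrates were set against spleens, so tissue and tumor cannot be told apart in those comparisons. In such bulk samples, fewer cells of a type and less RNA per cell also cannot be told apart.

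Lysosomes are the acid compartment in which cells break down proteins taken up from outside or delivered by autophagy. The vacuolar proton pump acidifies them: its V1 sector in the cytosol hydrolyses ATP and turns its V0 sector in the membrane, which carries the protons. Cathepsins are the proteases that work at that pH, in antigen processing, in the activation of other proteases and, when secreted, in the breakdown of matrix and bone. Tfeb and its relatives Mitf, Tfe3 and Tfec are transcription factors known to bind the letters CACGTG and their extended form TCACGTGA near the start of many lysosomal genes.

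RefSeq promoter windows on GRCm38.p6, from 250 bases before to 50 bases after an annotated start, were found for 36 of the 46 genes. The other 10 were Atp6v0a2, Atp6v0d2, Atp6v1b2, Atp6v1c1, Atp6v1g1, Atp6v1h, Ctsb, Ctse, Ctsh and Ctsw. The letters CACGTG, which read the same on both strands, were present in a window of 9 of these 36 genes (25%), against 8.09% of the 27025 symbols with a window. The form TCACGTGA, which contains CACGTG, was present in 5 of the 36 (13.9%), against 1.12% of all symbols. The 9 genes were Ctsa, Ctsd, Ctsf, Ctsl, Atp6v0b, Atp6v0d1, Atp6v0e, Atp6v1a and Lamp1. A match describes the letters of a window and is not evidence of binding. Below are the windows of 5 genes that hold the letters, chosen because Ctsl, Ctsd and Atp6v1a were among the genes that changed while Lamp1 and Atp6v0d1 stayed under 2-fold, and of Ctsk, which changed strongly and has no match. Capitals mark each CACGTG, and every sequence is given from 5′ to 3′ on the strand of its gene.
Ctsl, chr13:64370471-64370770, minus strand: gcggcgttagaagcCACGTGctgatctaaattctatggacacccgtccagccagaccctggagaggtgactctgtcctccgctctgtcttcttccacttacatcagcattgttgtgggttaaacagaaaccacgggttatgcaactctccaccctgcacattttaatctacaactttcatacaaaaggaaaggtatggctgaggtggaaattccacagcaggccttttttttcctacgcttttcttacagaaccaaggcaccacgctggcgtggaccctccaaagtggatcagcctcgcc
Ctsk, chr3:95498960-95499259, plus strand: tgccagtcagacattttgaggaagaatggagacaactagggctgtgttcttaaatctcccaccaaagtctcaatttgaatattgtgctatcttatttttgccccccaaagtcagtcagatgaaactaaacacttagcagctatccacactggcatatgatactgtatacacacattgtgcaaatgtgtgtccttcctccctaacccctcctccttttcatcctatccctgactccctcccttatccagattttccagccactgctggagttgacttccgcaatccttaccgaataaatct
Ctsd, chr7:142387778-142388077, minus strand: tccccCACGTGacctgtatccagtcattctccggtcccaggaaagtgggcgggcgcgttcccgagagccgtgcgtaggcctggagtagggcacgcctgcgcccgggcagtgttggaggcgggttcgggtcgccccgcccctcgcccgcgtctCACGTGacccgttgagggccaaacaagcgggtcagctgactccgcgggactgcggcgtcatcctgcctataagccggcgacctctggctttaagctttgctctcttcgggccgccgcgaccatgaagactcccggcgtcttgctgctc
Lamp1, chr8:13158911-13159210, plus strand: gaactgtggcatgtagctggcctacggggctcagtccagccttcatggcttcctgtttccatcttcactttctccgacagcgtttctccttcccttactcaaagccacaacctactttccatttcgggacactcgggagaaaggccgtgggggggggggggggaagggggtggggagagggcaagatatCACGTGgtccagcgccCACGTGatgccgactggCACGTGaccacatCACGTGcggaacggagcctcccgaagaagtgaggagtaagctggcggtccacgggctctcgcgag
Atp6v1a, chr16:44139210-44139509, minus strand: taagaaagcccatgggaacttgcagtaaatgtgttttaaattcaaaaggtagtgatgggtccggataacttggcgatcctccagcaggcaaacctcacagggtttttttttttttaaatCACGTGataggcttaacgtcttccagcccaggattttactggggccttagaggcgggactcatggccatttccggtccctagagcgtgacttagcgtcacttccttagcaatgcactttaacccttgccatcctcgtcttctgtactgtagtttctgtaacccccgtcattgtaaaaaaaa
Atp6v0d1, chr8:105566015-105566314, minus strand: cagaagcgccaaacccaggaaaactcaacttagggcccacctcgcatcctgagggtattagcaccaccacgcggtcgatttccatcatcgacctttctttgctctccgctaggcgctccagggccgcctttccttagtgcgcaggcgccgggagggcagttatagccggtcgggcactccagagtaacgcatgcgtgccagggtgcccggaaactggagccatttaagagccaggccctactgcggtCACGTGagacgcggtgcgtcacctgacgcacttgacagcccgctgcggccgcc
The Ctsd window held 2 matches and the Lamp1 window 4, while those of Ctsl, Atp6v1a and Atp6v0d1 held 1 each.

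Some arrays stood apart. Of the 6 culture arrays, 4 had a narrower spread of values over all probe sets (SD 1.96 to 1.98) than the other culture arrays (2.26 and 2.23), and they belonged to both cultures: replicates 1 and 2 with IL-6, and replicates 1 and 3 with G-CSF. The third C26-GM tumor array had a 3′ minus 5′ difference of 2.42 for actin, a sign of shortened RNA, against at most 0.68 on all other arrays, and the third C26-GM spleen array also had a narrow spread (SD 2.13). The 6 C26-GM arrays differed from the other 24 in sex-linked genes (Xist 5.15 to 6.47 on C26-GM arrays, against 10.06 to 11.12 on the others), so a difference in sex and the effect of C26-GM cannot be told apart. The healthy C57BL/6 spleen arrays carry a BALB/c label in some fields, but H2-Ea, a gene that C57BL/6 mice do not express, read 6.23 to 7.34 on the 9 C57BL/6 arrays and 9.35 to 13.05 on the 21 BALB/c arrays. The CD11b gate genes averaged 10.72 to 12.17 on every array.

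A gene was said to rise or fall when limma's moderated test gave a Benjamini-Hochberg adjusted p below 0.05 over all 18194 genes and the change was at least 2-fold. Of the 46 genes, 17 (37%) changed in at least 1 of the 7 comparisons with healthy spleen or fresh marrow, beside 31.8% of all genes, and 29 changed in none. In EL-4 infiltrate 8 genes rose and none fell, beside 6.42% and 4.4% of all genes. In 4T1 infiltrate 5 rose and 2 fell, beside 6.83% and 5.44% of all genes. In MCA203 infiltrate 5 rose and 1 fell, beside 5.01% and 5.42%. In C26-GM infiltrate 4 rose and 3 fell, beside 4.26% and 7.13%. In C26-GM spleen 1 rose and 1 fell, beside 2.32% and 3.83%. In the culture with G-CSF 8 rose and 2 fell, beside 4.48% and 9.37%, and in the culture with IL-6 5 rose and 1 fell, beside 5% and 9.07%. As shares of the 46 genes the rises came to 17.4% in EL-4 and with G-CSF, 10.9% in 4T1, in MCA203 and with IL-6, 8.7% in C26-GM infiltrate and 2.17% in C26-GM spleen, and the falls to at most 6.52%. No test of the 46 genes as a set was made.

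The genes differed in how often they were called. Ctsl rose in all 7 comparisons, Atp6v0d2 in 6, Ctsk and Ctsc in 4 each and Atp6v0a1 in 3, while Ctse fell in 4. Ctsw was the 1 gene called both ways, with 1 rise and 3 falls. The median log2 difference of the 46 genes was 0.223 in EL-4, 0.174 in 4T1, 0.076 in MCA203 and 0.199 in C26-GM infiltrate, beside medians of 0.015, -0.010, 0.140 and 0.111 over all genes. It was 0.172 in C26-GM spleen beside 0.091, 0.324 in the culture with G-CSF beside 0.140, and 0.153 in the culture with IL-6 beside 0.124. The 3 BALB/c comparisons share their healthy spleen arrays, the C57BL/6 comparisons share theirs, and the cultures share the fresh marrow arrays, so values are set side by side below and no correlation between comparisons is given.

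Markers of granulocytes and macrophages differed between the groups too. The 9 granulocyte markers averaged 6.82 to 7.83 in EL-4 and 6.63 to 6.99 in MCA203, against 12.06 to 12.18 in healthy C57BL/6 spleen, and all 9 fell in both infiltrates. They averaged 10.05 to 10.76 in 4T1, 10.74 to 11.50 in C26-GM infiltrate and 12.08 to 13.08 in C26-GM spleen, against 12.08 to 12.26 in healthy BALB/c spleen, and 6 of 9 fell in 4T1. The markers of red pulp macrophages, which take up old red cells in the spleen, fell in every infiltrate, 6 of 6 genes in 4T1, C26-GM and MCA203 and 5 of 6 in EL-4. In the cultures 5 of 9 macrophage markers and 6 of 6 red pulp macrophage markers fell. The part of these cells in the counts above and in the results below was not tested.

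**Figure D1:**
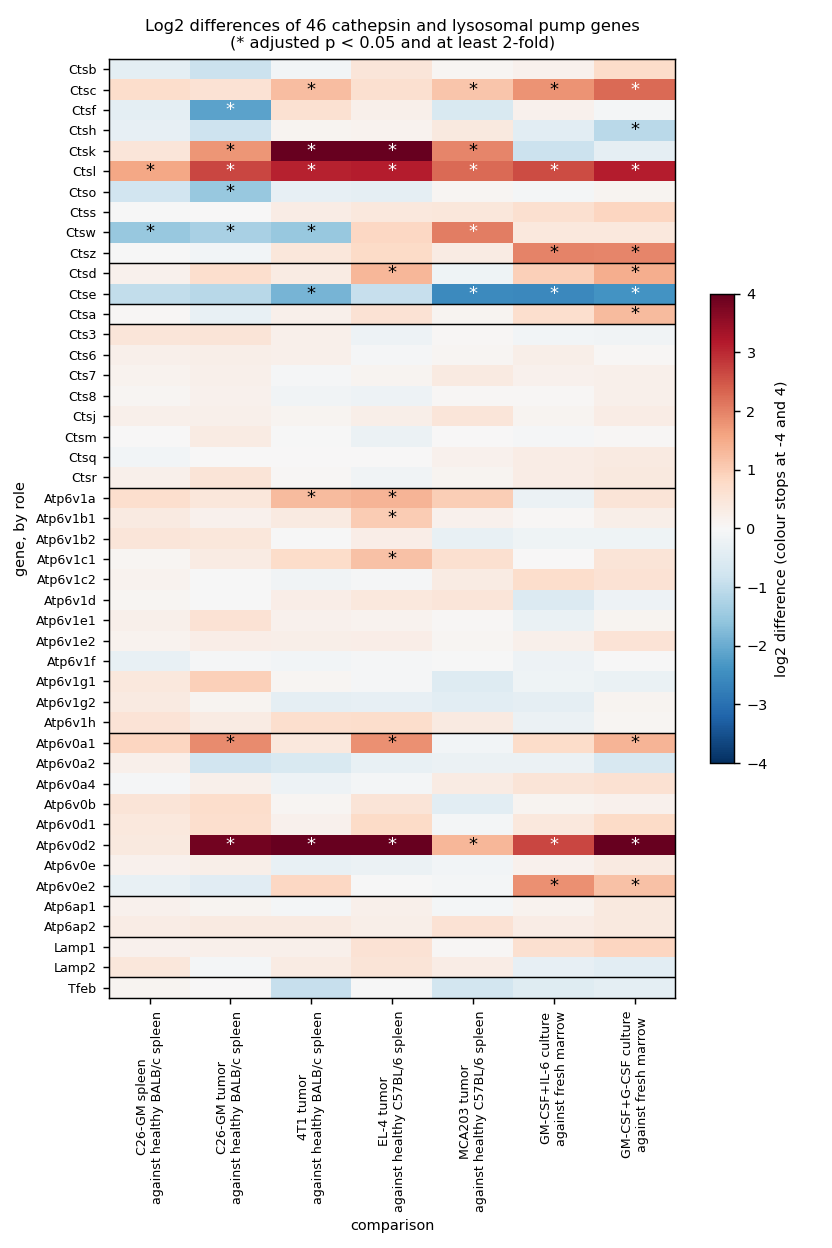
Log2 difference of each of the 46 genes (down the page, by class) in the 7 comparisons with a reference (across), as colour that stops at 4 in either direction; a star marks genes that rose or fell by the criteria in the text. Ctsl has 7 stars, Atp6v0d2 has 6 and Ctsk, Ctsc, Ctse and Ctsw have 4 each, while the 8 placental cathepsins have none.

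The classes also differed in how far their group means spread over the 10 groups. The range of group means had a median of 2.66 on the log2 scale for the 10 cysteine cathepsins, 1.28 for the 8 V0 subunits and 1.2 for the 12 V1 subunits, beside 1.05 over all genes. The aspartic pair Ctsd and Ctse ranged by 1.93 and 6.50. The widest ranges were those of Atp6v0d2 (6.77, wider than 99.7% of all genes), Ctse (99.5%) and Ctsk (5.65, 99%). At the other end, the accessory protein Atp6ap1 ranged by 0.58 and the V0 subunit Atp6v0e by 0.65. The 8 placental cathepsins Cts3, Cts6, Cts7, Cts8, Ctsj, Ctsm, Ctsq and Ctsr, a rodent family known from the placenta, had group means between 2.21 and 3.86 and changed in none of the comparisons.

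Cathepsin L (Ctsl), a cysteine protease of antigen processing and general protein breakdown, was the most regular of the rises. It read 12.66, 12.67 and 12.81 in 4T1, 12.88, 12.04 and 11.99 in C26-GM infiltrate and 11.21, 11.25 and 11.07 in C26-GM spleen, against 9.73, 9.67 and 9.48 in healthy BALB/c spleen. All 9 of these arrays lay above the 3 healthy ones, with the C26-GM spleen in between. The rises were 3.09 ± 0.19 in 4T1 (log2 difference ± SE; 8.50-fold, adjusted p = 1.43e-12), 2.68 ± 0.19 in C26-GM infiltrate and 1.55 ± 0.19 in C26-GM spleen (2.93-fold, adjusted p = 1.33e-06). In C57BL/6 mice Ctsl read 12.24, 12.83 and 12.51 in EL-4 and 11.72, 11.69 and 11.56 in MCA203, against 9.54, 9.02 and 9.62 in healthy spleen. The groups did not overlap, and the rises were 3.13 ± 0.19 in EL-4 (8.77-fold) and 2.26 ± 0.19 in MCA203 (4.80-fold). It read 11.89, 11.90 and 11.91 in the culture with G-CSF and 11.15, 11.34 and 11.59 in the culture with IL-6, against 8.83, 8.88 and 8.59 in fresh marrow, which makes rises of 3.14 and 2.60. The C26-GM infiltrate was also above the C26-GM spleen, by 1.13 (adjusted p = 0.000115), which was 0.84 and under 2-fold without C26-GM tumor replicate 1.

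A second, dimmer probe set of Ctsl, with a mean of 4.40 over all arrays, differed by 2.88 in EL-4 and 2.05 in MCA203. Its differences were under 2-fold in every BALB/c comparison: 0.25 in 4T1, 0.31 in C26-GM infiltrate, 0.28 in C26-GM spleen, 0.63 with G-CSF and 0.62 with IL-6. With the mean of both probe sets, Ctsl rose by 1.67 in 4T1 and by 1.5 in C26-GM infiltrate, while the difference in C26-GM spleen was 0.91 and no longer 2-fold.

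Cathepsin K (Ctsk), the collagen-cleaving protease best known from osteoclasts, was high in 2 of the 4 infiltrates and lower in the others. It read 9.42, 10.87 and 9.42 in 4T1 and 6.86, 6.24 and 6.08 in C26-GM infiltrate, against 4.69, 4.57 and 4.67 in healthy BALB/c spleen. In C57BL/6 mice it read 9.75, 10.94 and 10.12 in EL-4 and 7.46, 6.59 and 5.63 in MCA203, against 4.38, 4.48 and 5.01 in healthy spleen. Every infiltrate array lay above every healthy array of its strain, with 4T1 and EL-4 far above the other infiltrates. The rises were 5.65 ± 0.36 in EL-4 (50.2-fold, adjusted p = 4.72e-12), 5.26 ± 0.36 in 4T1 (38.4-fold, adjusted p = 1.06e-11), 1.94 ± 0.36 in MCA203 and 1.75 ± 0.36 in C26-GM infiltrate (3.37-fold, adjusted p = 0.00052). Set directly against each other, 4T1 exceeded C26-GM infiltrate by 3.51 and EL-4 exceeded MCA203 by 3.71. C26-GM spleen, at 4.75, 5.19 and 5.43, did not pass the test, and the excess of C26-GM infiltrate over it, 1.27, was lost without C26-GM spleen replicate 1 (1.09, adjusted p = 0.0916) or without C26-GM tumor replicate 1 (1.04, adjusted p = 0.0898). In culture Ctsk did not rise: it read 6.12, 6.12 and 6.07 with G-CSF and 5.57, 5.63 and 5.55 with IL-6, against 6.78, 6.30 and 6.28 in fresh marrow.

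Fibroblasts also make Ctsk. Their marker list was above healthy spleen on every array of 4T1, EL-4 and MCA203, and overlapped it in C26-GM infiltrate. The 9 fibroblast genes, collagens among them, averaged 7.09 to 7.58 in 4T1 and 5.19 to 5.68 in C26-GM infiltrate, against 5.00 to 5.27 in healthy BALB/c spleen. They averaged 6.71 to 7.10 in EL-4 and 5.92 to 6.76 in MCA203, against 4.24 to 4.39 in healthy C57BL/6 spleen. Of the 9, 6 rose and 1 fell in 4T1, 7 rose in EL-4, 6 rose in MCA203, and 3 rose and 1 fell in C26-GM infiltrate. Of 7 osteoclast markers, Ocstamp and Dcstamp rose, by 1.59 and 2.77 in EL-4 and by 1.75 and 2.42 in 4T1. Nfatc1 and Itgb3 fell, by 1.36 and 1.0 in EL-4 and by 1.28 and 1.09 in 4T1, but with the mean of all probe sets these were -0.47, -0.55, -0.24 and -0.84 and not called. Calcr, the calcitonin receptor of mature osteoclasts, had group means of 2.64 to 3.28 in all 10 groups. The part of either cell type in the Ctsk result was not tested.

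**Figure D2:**
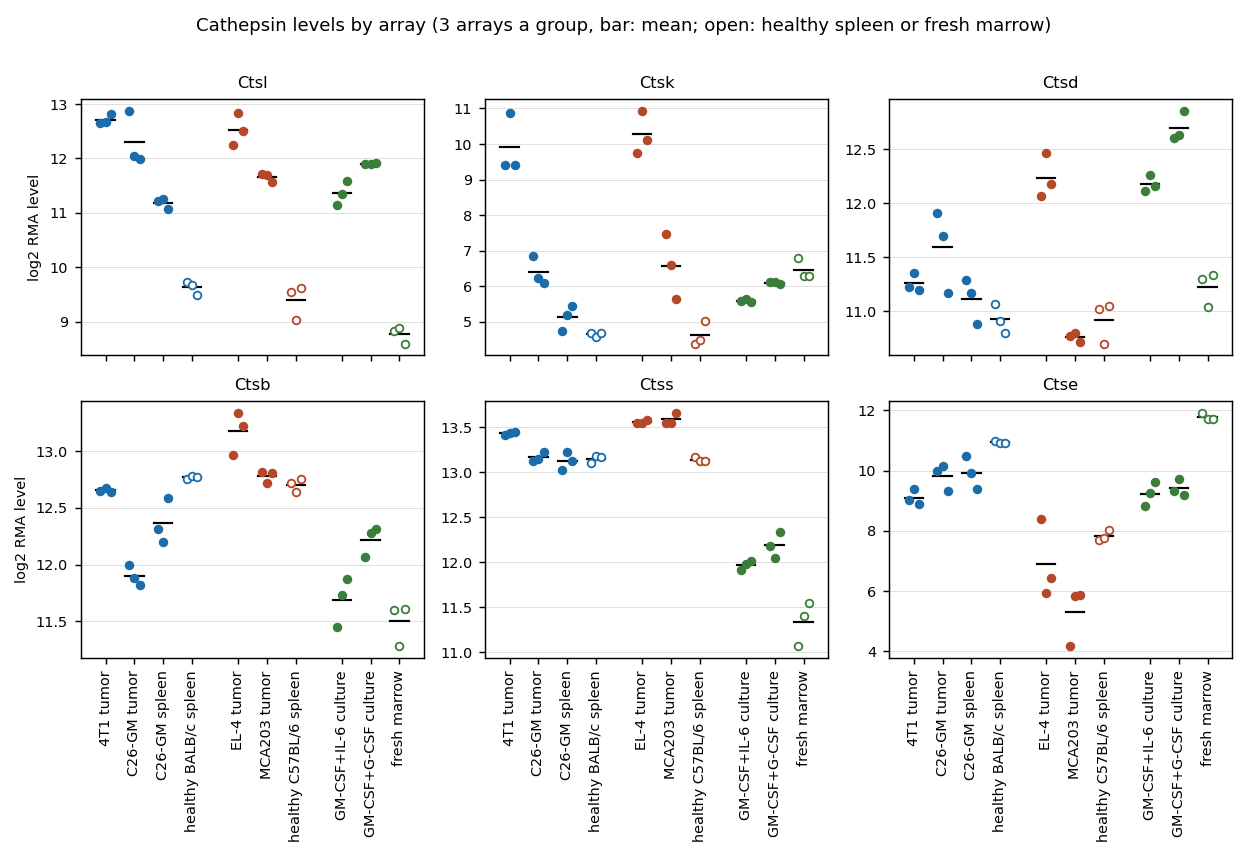
Log2 level of Ctsl, Ctsk, Ctsd, Ctsb, Ctss and Ctse on each of the 30 arrays (points; open symbols are healthy spleen or fresh marrow) with the mean of 3 arrays as a bar. Ctsl is above its healthy spleen or fresh marrow in every other group, Ctsk above 9 in 4T1 and EL-4 alone, and Ctse is lowest in MCA203.

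Cathepsin C (Ctsc) activates the serine proteases of granulocytes and cytotoxic cells by trimming their N-termini. It read 13.11, 13.00 and 13.13 in 4T1, against 12.01, 11.77 and 11.80 in healthy BALB/c spleen, a rise of 1.22 ± 0.18. It read 13.14, 13.07 and 13.09 in MCA203, against 12.23, 11.67 and 12.03 in healthy C57BL/6 spleen, a rise of 1.12 ± 0.18 that was 0.97 without healthy spleen replicate 2. By the brightest probe set the largest rises of Ctsc were in culture. It read 12.39, 12.49 and 12.53 with G-CSF and 11.84, 11.99 and 12.16 with IL-6, against 9.85, 10.79 and 9.99 in fresh marrow. No arrays of the groups overlapped in these 4 comparisons, and the culture rises were 2.26 and 1.79 (adjusted p = 2.18e-10 and 1.25e-08). In EL-4 and C26-GM spleen Ctsc differed by 0.65 and 0.71, under 2-fold. Its 3 probe sets differed in size, from 0.65 to 1.35 in EL-4 and from 0.58 to 1.51 in C26-GM spleen. They ran from 1.22 to 2.71 in 4T1, from 1.12 to 2.44 in MCA203 and from -0.19 to 0.60 in C26-GM infiltrate. In culture they ran from 1.51 to 2.26 with G-CSF and from 1.46 to 1.91 with IL-6. Not every set therefore placed the largest rise in culture.

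Cathepsin Z (Ctsz), a carboxypeptidase of myeloid cells, rose in culture and, by its brightest probe set, in no tumor comparison. It read 12.36, 12.70 and 12.40 with G-CSF and 12.39, 12.42 and 12.81 with IL-6, against 10.48, 10.54 and 10.59 in fresh marrow. Both cultures lay entirely above the marrow, by 1.95 and 2.00. Its differences in EL-4 and 4T1 were 0.76 and 0.46, both past the adjusted p but under 2-fold. Its 3 probe sets ran from 0.76 to 1.13 in EL-4 and from 0.46 to 0.85 in 4T1.

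Cathepsins B and S (Ctsb and Ctss), abundant proteases of macrophages and, for Ctss, of antigen presentation, stayed under 2-fold in every comparison. Ctsb read 12.65, 12.68 and 12.64 in 4T1, 12.00, 11.88 and 11.82 in C26-GM infiltrate and 12.31, 12.20 and 12.59 in C26-GM spleen, against 12.76, 12.78 and 12.77 in healthy BALB/c spleen. It was lowest in the C26-GM infiltrate, by 0.87 (adjusted p = 1.48e-05), and with the mean of its 5 probe sets the difference there was -1.51 and past 2-fold. In C57BL/6 mice it read 12.97, 13.34 and 13.22 in EL-4 and 12.82, 12.72 and 12.81 in MCA203, against 12.72, 12.64 and 12.76 in healthy spleen. Only the EL-4 difference of 0.47 passed the adjusted p. In the cultures Ctsb read 12.07, 12.28 and 12.31 with G-CSF and 11.45, 11.73 and 11.87 with IL-6, against 11.60, 11.28 and 11.61 in fresh marrow. The G-CSF culture lay above the marrow by 0.72, and the IL-6 culture overlapped it.

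Ctss read 13.41, 13.44 and 13.45 in 4T1, 13.13, 13.15 and 13.22 in C26-GM infiltrate and 13.03, 13.22 and 13.13 in C26-GM spleen, against 13.10, 13.18 and 13.17 in healthy BALB/c spleen. It read 13.55, 13.55 and 13.58 in EL-4 and 13.55, 13.55 and 13.66 in MCA203, against 13.17, 13.12 and 13.13 in healthy C57BL/6 spleen. The C57BL/6 infiltrates lay above their reference without overlap, by 0.42 and 0.45 (adjusted p = 0.00853 and 0.00562). Cultures read 12.18, 12.05 and 12.34 with G-CSF and 11.91, 11.98 and 12.01 with IL-6, against 11.07, 11.40 and 11.55 in fresh marrow, differences of 0.85 and 0.63.

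Cathepsins F and O (Ctsf and Ctso), less studied cysteine proteases, and cathepsin H (Ctsh), an aminopeptidase, were low in the C26-GM infiltrate. Ctsf read 4.81, 4.96 and 4.59 in C26-GM infiltrate, against 6.95, 6.85 and 6.99 in healthy BALB/c spleen, and it fell by 2.14 (adjusted p = 4.77e-10). Against the 6.72, 6.58 and 6.35 of C26-GM spleen it fell by 1.76, and 4T1, at 7.97, 7.36 and 7.33, exceeded C26-GM infiltrate by 2.76 (adjusted p = 9.17e-12). A second probe set of Ctsf did not follow: its differences were 0.03, -0.22 and -0.14 in these 3 comparisons, and with the mean of both sets the first was -1.06. Ctso read 7.77, 7.44 and 7.50 in C26-GM infiltrate, against 8.99, 9.21 and 9.06 in healthy spleen, a fall of 1.52. Its other probe set differed by -1.57 there, but also by -1.33 in 4T1, -1.84 in EL-4 and -1.56 in MCA203. The brighter set gave -0.34, -0.37 and 0.07 in those 3 infiltrates, so the sets disagree on whether C26-GM stands apart. In 4T1 Ctso read 8.84, 8.69 and 8.72, 1.18 above C26-GM infiltrate, but the other set differed by 0.23 in that comparison. With the mean of both sets the difference was 0.71 and not called. Ctsh read 10.66, 10.64 and 10.55 in C26-GM infiltrate, against 11.39, 11.44 and 11.47 in healthy spleen, without overlap but under 2-fold (-0.82). Ctsh fell by 1.09 in the culture with G-CSF, where it read 9.14, 9.98 and 9.18, against 10.52, 10.47 and 10.57 in fresh marrow, and its difference was -0.54 and under 2-fold without the 4 narrow culture arrays. The 9 macrophage markers averaged 9.39 to 9.90 in C26-GM infiltrate, against 11.30 to 11.41 in healthy BALB/c spleen, and 6 of 9 fell, with 6 of 6 red pulp macrophage markers (median -4.49). In 4T1 the macrophage markers averaged 11.62 to 11.72, and 6 of 9 were higher than in C26-GM infiltrate by the same criteria. The part of these cells in the values of Ctsb, Ctsf, Ctso and Ctsh was not tested.

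Cathepsin W (Ctsw), known from cytotoxic T and natural killer (NK) cells, moved in opposite directions in BALB/c and C57BL/6 mice. It read 4.89, 4.87 and 4.85 in 4T1, 5.15, 4.86 and 5.27 in C26-GM infiltrate and 4.79, 4.89 and 5.02 in C26-GM spleen, against 6.55, 6.25 and 6.4 in healthy BALB/c spleen. It fell by 1.53, 1.31 and 1.5 in these groups, with no overlap. In MCA203 it read 8.11, 8.69 and 8.17 and in EL-4 7.27, 6.94 and 7.10, against 6.39, 6.14 and 6.29 in healthy C57BL/6 spleen. The MCA203 infiltrate rose by 2.05 ± 0.28 (4.13-fold, adjusted p = 2.35e-06), and EL-4 lay above without overlap by 0.83 (adjusted p = 0.0288), under 2-fold. EL-4 fell by 1.22 relative to MCA203. In the cultures Ctsw read 6.44, 5.05 and 6.35 with G-CSF and 6.34, 6.30 and 5.18 with IL-6, against 5.33, 5.36 and 5.85 in fresh marrow, and the 4 values above 6 are those of the 4 narrow arrays. Neither culture passed the test.

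The difference between strains was tested as the mean effect of the C57BL/6 infiltrates less that of the BALB/c infiltrates. Of the 46 genes 1 rose in this test, Ctsw, by 2.86 ± 0.34 (adjusted p = 1.29e-06), and none fell, beside 2.83% and 2.11% of all genes. Each strain carried its own tumor lines, so strain and tumor line cannot be told apart. Markers of NK and T cells moved with Ctsw, while those of B cells did not in C57BL/6 mice. The 6 NK genes averaged 4.86 to 5.10 in 4T1, 4.58 to 5.12 in C26-GM infiltrate and 4.78 to 5.09 in C26-GM spleen, against 7.55 to 8.0 in healthy BALB/c spleen. In C57BL/6 mice they averaged 7.76 to 8.21 in EL-4 and 8.26 to 8.94 in MCA203, against 7.26 to 7.55 in healthy spleen. The 6 T cell genes averaged 4.74 to 5.49 in the 3 BALB/c groups, against 6.07 to 6.21 in healthy spleen, and 8.01 to 8.29 in EL-4 and 7.91 to 8.34 in MCA203, against 5.67 to 5.89 in healthy spleen. The 6 B cell genes averaged 7.16 to 7.33 in EL-4 and 5.63 to 5.86 in MCA203, against 8.65 to 8.89 in healthy C57BL/6 spleen, and 5 of 6 fell in each. In the strain test 6 of 6 NK genes and 6 of 6 T cell genes rose, and the part of these cells in the Ctsw result was not tested.

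**Figure D3:**
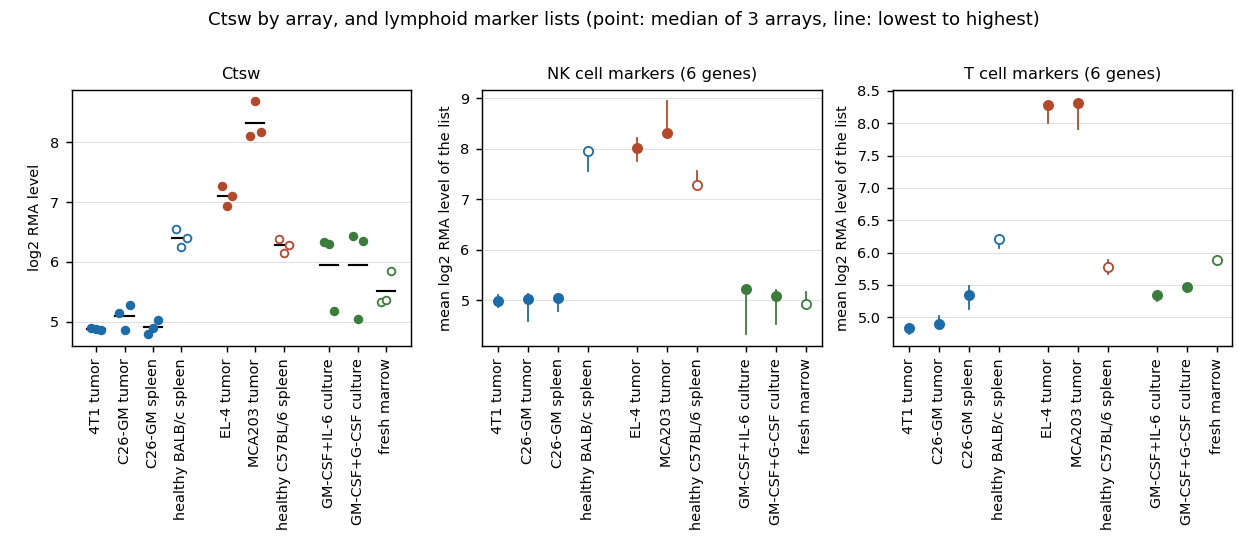
Log2 level of Ctsw on each array of the spleen and tumor groups, with the mean level of the NK and the T cell marker genes in the same groups (marker, median of 3 arrays; line, lowest to highest). Ctsw and both marker lists are below the healthy spleen in BALB/c groups and above it in C57BL/6 groups.

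Cathepsin D (Ctsd), the main aspartic protease of lysosomes, rose in EL-4 and in culture. It read 12.07, 12.47 and 12.18 in EL-4 and 10.77, 10.80 and 10.72 in MCA203, against 11.02, 10.70 and 11.05 in healthy C57BL/6 spleen. EL-4 stood clear of both other groups, by 1.32 over the spleen (adjusted p = 5.52e-07) and by 1.47 over MCA203 (adjusted p = 2.90e-07), while MCA203 overlapped the spleen. In BALB/c mice Ctsd read 11.23, 11.36 and 11.20 in 4T1, 11.91, 11.70 and 11.17 in C26-GM infiltrate and 11.29, 11.17 and 10.88 in C26-GM spleen, against 11.07, 10.91 and 10.80 in healthy spleen. The C26-GM infiltrate exceeded the healthy spleen by 0.67, under 2-fold. In culture it read 12.61, 12.63 and 12.86 with G-CSF and 12.12, 12.26 and 12.16 with IL-6, against 11.30, 11.04 and 11.34 in fresh marrow. Both cultures lay above the marrow, with a rise of 1.47 for G-CSF and a difference of 0.95 for IL-6 that was under 2-fold.

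Cathepsin E (Ctse), an aspartic protease of endosomes, ran the other way and fell in 4 comparisons. It read 9.02, 9.38 and 8.88 in 4T1, against 10.97, 10.92 and 10.93 in healthy BALB/c spleen, a fall of 1.85 ± 0.43. It read 4.18, 5.83 and 5.88 in MCA203 and 8.38, 5.93 and 6.44 in EL-4, against 7.70, 7.75 and 8.04 in healthy C57BL/6 spleen. MCA203 lay below the spleen without overlap and fell by 2.53 ± 0.43 (adjusted p = 5.48e-05), while the first EL-4 array lay above the spleen and the others below it. Without that first array the EL-4 difference was -1.64 and passed the test, against -0.91 with it, and the excess of EL-4 over MCA203, 1.62 with all arrays, was 0.89 (adjusted p = 0.134). The same EL-4 array had the highest mean of the 6 epithelial marker genes, 9.72. That mean was 6.30 and 7.31 on the other EL-4 arrays, 6.03 to 6.89 in MCA203 and 4.74 to 4.90 in healthy C57BL/6 spleen. In 4T1, where Ctse fell, it was 8.24 to 8.75, against 4.94 to 5.05 in healthy BALB/c spleen. The part of such cells was not tested. In the C26-GM infiltrate and spleen Ctse read 9.98, 10.15 and 9.32 and 10.50, 9.91 and 9.40, below the healthy arrays but not past the test. In culture it fell by 2.38 with G-CSF (9.31, 9.74 and 9.19) and by 2.56 with IL-6 (8.82, 9.26 and 9.62), against 11.92, 11.73 and 11.73 in fresh marrow. A second probe set of Ctse differed by -0.33 in 4T1, 0.06 in MCA203, 0.21 with G-CSF and -1.46 with IL-6, so the sets disagree in 3 of these 4 falls.

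Cathepsin A (Ctsa), a serine carboxypeptidase that also protects lysosomal glycosidases, rose in the culture with G-CSF. It read 10.79, 11.09 and 11.19 with G-CSF and 10.21, 10.31 and 10.73 with IL-6, against 9.66, 9.72 and 9.87 in fresh marrow. No culture array overlapped the marrow, and the differences were 1.27 with G-CSF (adjusted p = 8.83e-08) and 0.67 with IL-6, which was under 2-fold. The other probe set differed by 0.62 with G-CSF, and with the mean of both sets the rise was 0.95 and not called.

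Among the pump genes, 5 of 22 rose in EL-4 and 3 with G-CSF, beside 6.42% and 4.48% of all genes. In 4T1, in C26-GM infiltrate and with IL-6 2 rose in each, beside 6.83%, 4.26% and 5%. In MCA203 1 rose and in C26-GM spleen none, beside 5.01% and 2.32%. None of the 22 fell in any of these comparisons, beside 3.83% to 9.37% of all genes. The median difference of the 22 genes was 0.248 in EL-4, 0.174 in 4T1 and 0.293 in C26-GM infiltrate. It was 0.250 in C26-GM spleen, 0.003 in MCA203, 0.373 with G-CSF and 0.078 with IL-6. In MCA203 and with IL-6 it was below the median over all genes given above, and in the other comparisons above it.

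The V0 subunit d2 (Atp6v0d2), the form of the d subunit found in osteoclasts and some macrophages, carried the largest changes. It read 10.32, 10.95 and 10.28 in EL-4 and 5.58, 5.35 and 5.09 in MCA203, against 3.85, 3.79 and 4.36 in healthy C57BL/6 spleen. EL-4 was far above the rest, with a rise of 6.52 ± 0.49 (91.6-fold, adjusted p = 8.08e-11) and an excess over MCA203 of 5.18. The MCA203 rise of 1.34 ± 0.49 only just passed (adjusted p = 0.0475) and was lost whenever any 1 array of either group was left out, at values of 1.22 to 1.52. The SE rests on a spread shared by all 10 groups. The SD of Atp6v0d2 was 0.24 in MCA203 and 0.31 in healthy C57BL/6 spleen, against 1.6 in C26-GM infiltrate. In BALB/c mice Atp6v0d2 read 7.58, 8.51 and 7.36 in 4T1, 9.15, 7.74 and 5.96 in C26-GM infiltrate and 3.65, 4.08 and 4.70 in C26-GM spleen, against 3.65, 3.75 and 3.85 in healthy spleen. Both infiltrates lay clear of the healthy spleen and the C26-GM spleen overlapped it. The rises were 4.07 ± 0.49 in 4T1 (16.8-fold) and 3.87 ± 0.49 in C26-GM infiltrate (14.6-fold), and the C26-GM infiltrate exceeded the C26-GM spleen by 3.47 (adjusted p = 9.73e-06). The lowest C26-GM infiltrate array, 5.96, was the one with the high actin difference, and without it and the third C26-GM spleen array the rise was 4.70. In culture it read 7.98, 9.29 and 8.72 with G-CSF and 6.47, 6.67 and 7.76 with IL-6, against 4.26, 4.61 and 4.04 in fresh marrow, rises of 4.36 and 2.66 with no overlap. A second probe set had the same direction in all 4 infiltrates, with 5.63 in EL-4, 3.12 in 4T1, 2.48 in C26-GM and 1.31 in MCA203.

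The partner gene of the same subunit, Atp6v0d1, is expressed in most cells and stayed under 2-fold in every comparison. It read 10.55, 10.71 and 10.64 in EL-4 and 9.85, 9.88 and 9.63 in MCA203, against 9.90, 9.78 and 9.90 in healthy C57BL/6 spleen. Its difference in EL-4 was 0.77 (adjusted p = 0.000134), without overlap but under 2-fold. It read 10.15, 10.24 and 10.07 in 4T1, 10.74, 10.74 and 10.41 in C26-GM infiltrate and 10.46, 10.29 and 10.47 in C26-GM spleen, against 10.03, 9.94 and 9.95 in healthy BALB/c spleen. All 3 groups lay above the healthy arrays, by 0.66 in C26-GM infiltrate and 0.43 in C26-GM spleen, both under 2-fold, and without passing the test in 4T1. In culture it read 10.83, 11.25 and 11.09 with G-CSF and 10.54, 10.60 and 11.01 with IL-6, against 10.46, 10.16 and 10.29 in fresh marrow, and the G-CSF difference was 0.75.

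The a subunits form the path by which protons cross the membrane. Atp6v0a1 read 8.69, 8.89 and 8.83 in C26-GM infiltrate and 7.94, 7.46 and 7.88 in C26-GM spleen, against 7.15, 6.79 and 6.75 in healthy BALB/c spleen. The infiltrate rose by 1.90 (adjusted p = 1.33e-07) and the spleen lay between, at 0.86 and under 2-fold. In 4T1 it read 7.36, 7.15 and 7.45, which was 1.48 below C26-GM infiltrate, a fall that was -0.73 and not called with the mean of all probe sets. It read 8.60, 9.10 and 8.39 in EL-4 and 6.84, 6.77 and 6.64 in MCA203, against 6.87, 6.92 and 6.80 in healthy C57BL/6 spleen. EL-4 rose by 1.84 over the spleen and by 1.94 over MCA203, while MCA203 overlapped the spleen. With G-CSF it read 8.97, 9.80 and 9.24 and with IL-6 8.33, 8.49 and 9.30, against 8.09, 7.83 and 8.01 in fresh marrow, and the G-CSF rise was 1.36. The 4 probe sets of Atp6v0a1 differed in size, from 0.34 to 1.90 in C26-GM infiltrate and from 0.00 to 2.49 in EL-4. Atp6v0a2 did not change, with differences of -0.76 in C26-GM infiltrate and -0.60 in 4T1 that were under 2-fold, and Atp6v0a4, known from kidney, had array values of 3.18 to 4.63.

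Atp6v0e2, a small V0 subunit, rose in both cultures. It read 5.36, 5.66 and 5.45 with G-CSF and 6.27, 6.18 and 6.04 with IL-6, against 4.40, 4.23 and 4.34 in fresh marrow. The groups were separate, with rises of 1.17 and 1.84. In 4T1 it read 6.17, 6.25 and 6.02, 1.28 above the 4.85, 4.91 and 4.86 of C26-GM infiltrate (adjusted p = 3.53e-05). The V0 genes Atp6v0b and Atp6v0e stayed under 2-fold, with the widest difference 0.96 for Atp6v0b in EL-4 against MCA203.

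**Figure D4:**
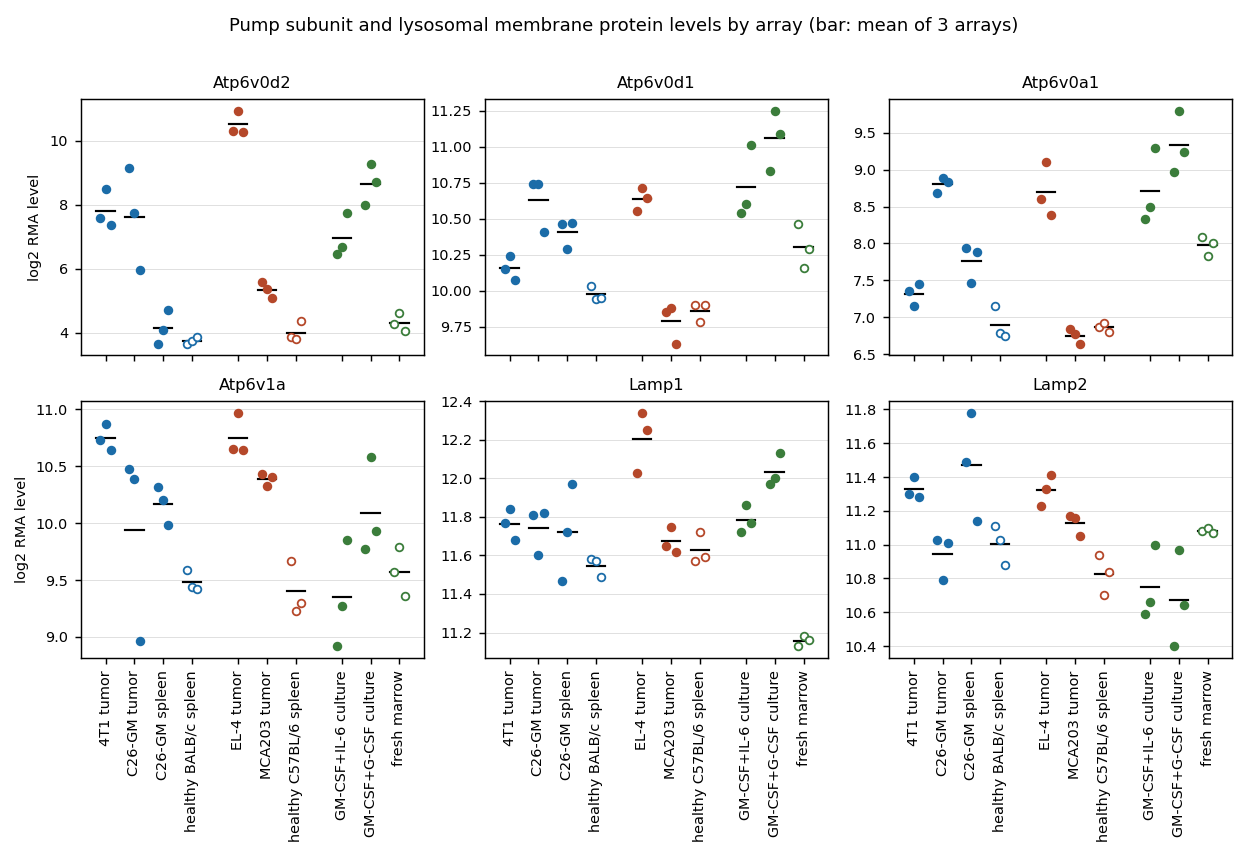
Log2 level of Atp6v0d2, Atp6v0d1, Atp6v0a1, Atp6v1a, Lamp1 and Lamp2 on each of the 30 arrays (points; open symbols are healthy spleen or fresh marrow) with the mean of 3 arrays as a bar. Atp6v0d2 spans 3.65 to 10.95, while Lamp1 spans 11.13 to 12.34 and Lamp2 10.40 to 11.78.

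In the V1 sector, Atp6v1a encodes the A subunit that binds and hydrolyses ATP. It read 10.73, 10.87 and 10.64 in 4T1 and 10.32, 10.20 and 9.98 in C26-GM spleen, against 9.59, 9.44 and 9.42 in healthy BALB/c spleen. 4T1 rose by 1.26 ± 0.28 without overlap (adjusted p = 0.000886), and the C26-GM spleen did not pass the test. In C26-GM infiltrate it read 10.48, 10.39 and 8.96, with the third array, the one with the high actin difference, below the healthy spleen. It read 10.65, 10.97 and 10.64 in EL-4 and 10.43, 10.33 and 10.41 in MCA203, against 9.67, 9.23 and 9.30 in healthy C57BL/6 spleen. EL-4 rose by 1.35, and the MCA203 difference was 0.99, just under 2-fold. Atp6v1c1, the C subunit by which the sectors join and part, read 10.80, 11.12 and 10.84 in EL-4, against 9.82, 9.71 and 9.69 in healthy spleen, a rise of 1.18 (adjusted p = 4.86e-06). Atp6v1b1, a B subunit known from kidney and inner ear, read 5.85, 3.84 and 4.14 in EL-4, against 3.65, 3.47 and 3.63 in healthy spleen. Its rise of 1.03 rested on the first EL-4 array, the one with the highest epithelial markers, and without it the difference was 0.41 (adjusted p = 0.195). The stalk subunit Atp6v1g1 differed by 0.96 in C26-GM infiltrate, and the B subunit Atp6v1b2 by 0.45, both under 2-fold. None of the 12 V1 genes changed in the cultures.

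The accessory proteins Atp6ap1 and Atp6ap2, which are needed for assembly of the pump, had no change in any comparison, and their largest difference was 0.59, for Atp6ap2 in MCA203. Both are X-linked, as is Lamp2.

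Lamp1 and Lamp2 make up much of the protein of the lysosomal membrane, and neither reached 2-fold anywhere by its brightest probe set. Lamp1 read 12.03, 12.34 and 12.25 in EL-4 and 11.65, 11.75 and 11.62 in MCA203, against 11.57, 11.72 and 11.59 in healthy C57BL/6 spleen. EL-4 lay above both, by 0.58 over the spleen (adjusted p = 0.000838) and 0.53 over MCA203. It read 11.77, 11.84 and 11.68 in 4T1, 11.81, 11.60 and 11.82 in C26-GM infiltrate and 11.47, 11.72 and 11.97 in C26-GM spleen, against 11.58, 11.57 and 11.49 in healthy BALB/c spleen. None of these 3 groups passed the test. The widest Lamp1 differences were in culture, where it read 11.97, 12.00 and 12.13 with G-CSF and 11.72, 11.86 and 11.77 with IL-6, against 11.13, 11.18 and 11.16 in fresh marrow, differences of 0.87 (adjusted p = 4.22e-06) and 0.63. The culture arrays all lay above the marrow.

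By its brightest probe set, Lamp2 went with Lamp1 in EL-4 and not in culture. It read 11.23, 11.33 and 11.41 in EL-4 and 11.17, 11.16 and 11.05 in MCA203, against 10.94, 10.70 and 10.84 in healthy C57BL/6 spleen, and the EL-4 difference was 0.50 (adjusted p = 0.0158). In BALB/c mice it read 11.30, 11.40 and 11.28 in 4T1, 11.03, 10.79 and 11.01 in C26-GM infiltrate and 11.49, 11.78 and 11.14 in C26-GM spleen, against 11.11, 11.03 and 10.88 in healthy spleen. The C26-GM spleen lay above the healthy spleen by 0.47 (adjusted p = 0.0402) and the infiltrate overlapped it. With G-CSF it read 10.40, 10.97 and 10.64 and with IL-6 10.59, 10.66 and 11, against 11.08, 11.10 and 11.07 in fresh marrow. Every culture array was below the marrow, by 0.41 with G-CSF (adjusted p = 0.0345). The 4 probe sets of Lamp2 disagreed in direction there, with differences from -1.07 to 0.21 with G-CSF and from -0.60 to 0.12 with IL-6. For IL-6 against G-CSF they ran from -0.57 to 0.52.

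Tfeb, the transcription factor that drives many lysosomal genes when it is in the nucleus, did not reach 2-fold in any comparison, and its differences past the adjusted p were negative against a reference. It read 6.61, 6.90 and 6.70 in 4T1, 7.58, 7.78 and 7.61 in C26-GM infiltrate and 7.72, 7.77 and 7.80 in C26-GM spleen, against 7.68, 7.70 and 7.57 in healthy BALB/c spleen. 4T1 lay below by 0.91 (adjusted p = 1.18e-06), the other groups did not pass the test, and the difference of 4T1 from C26-GM infiltrate was -0.92. It read 7.45, 7.78 and 7.55 in EL-4 and 6.66, 6.94 and 7.02 in MCA203, against 7.63, 7.59 and 7.61 in healthy C57BL/6 spleen. MCA203 lay below without overlap, by 0.73 (adjusted p = 3.52e-05), and EL-4 overlapped the spleen. In culture Tfeb read 7.77, 7.80 and 7.77 with G-CSF and 7.62, 7.80 and 7.69 with IL-6, against 8.24, 8.15 and 8.12 in fresh marrow, differences of -0.39 and -0.47. The level of its mRNA says nothing of where the protein sits in the cell, which is how its activity is known to be set.

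Its relatives differed more. Of the 3 other factors of the family, Tfec, which is largely limited to myeloid cells, read 10.50, 10.34 and 10.29 in C26-GM infiltrate, 9.79, 10.32 and 10.10 in C26-GM spleen and 9.08, 9.11 and 9.31 in 4T1, against 7.79, 7.49 and 7.92 in healthy BALB/c spleen. It rose in all 3 groups, by 2.64 (adjusted p = 1.76e-08), 2.34 and 1.43. In C57BL/6 mice it read 8.41, 8.56 and 8.36 in EL-4 and 7.62, 6.96 and 6.13 in MCA203, against 7.55, 7.42 and 7.60 in healthy spleen. Every EL-4 array lay above every healthy array, but neither group reached 2-fold (0.92 and -0.62). The strain test gave -1.89 for Tfec (adjusted p = 0.000278). Mitf, the family member of pigment cells and osteoclasts, read 8.54, 8.89 and 8.71 in EL-4, against 7.65, 7.23 and 7.72 in healthy spleen, a rise of 1.18. Both rose in culture, Tfec by 1.58 with G-CSF and 1.10 with IL-6 and Mitf by 1.31 and 1.03, but without IL-6 culture replicate 3 the IL-6 differences were 0.78 for Tfec and 0.79 for Mitf, under 2-fold. With the mean of all probe sets the culture differences of Mitf were 0.76 and 0.53 and not called. Tfe3 changed in no comparison.

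**Figure D5:**
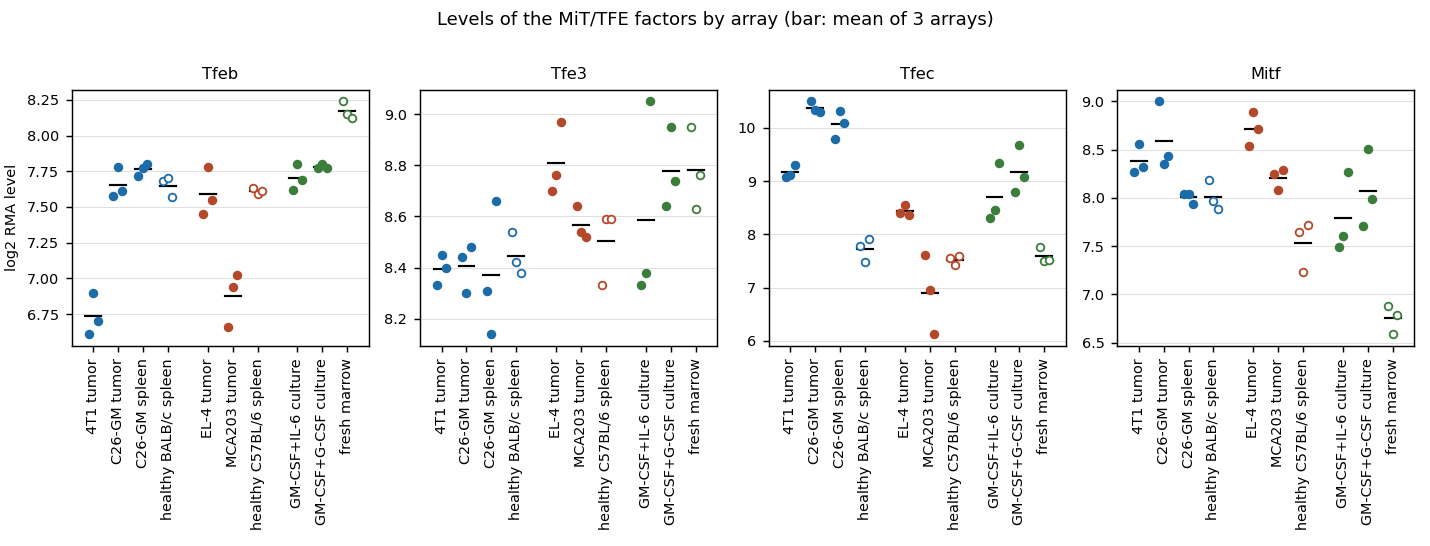
Log2 level of Tfeb, Tfe3, Tfec and Mitf on each of the 30 arrays (points; open symbols are healthy spleen or fresh marrow) with the mean of 3 arrays as a bar. Tfeb lies below the healthy spleen in 4T1 and MCA203, and Tfec above it in 4T1, in both C26-GM groups and, under 2-fold, in EL-4.

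Lists of other lysosomal genes give the setting. Of 30 other acid hydrolases, 5 rose and none fell in EL-4, beside 6.42% and 4.4% of all genes. In 4T1 4 rose and 1 fell, beside 6.83% and 5.44%, and in MCA203 3 rose and 1 fell, beside 5.01% and 5.42%. In C26-GM infiltrate 1 rose and 4 fell, beside 4.26% and 7.13%. In C26-GM spleen 2 rose and 2 fell, beside 2.32% and 3.83%. Gla, the alpha-galactosidase that clears globotriaosylceramide, rose in all 4 infiltrates, by 3.51 in EL-4, 3.51 in 4T1, 3.19 in MCA203 and 2.60 in C26-GM. Lgmn, the asparaginyl protease that matures several cathepsins, rose by 1.43 in EL-4, 1.63 in 4T1 and 1.79 in MCA203, and Gusb by 1.35, 1.42 and 1.12. In the C26-GM infiltrate Arsb, Lipa, Ids and Acp2 fell, by 3.17, 2.30, 1.58 and 1.47, though Ids gave -0.43 with the mean of its probe sets. In culture 3 hydrolases rose and 4 fell with G-CSF, beside 4.48% and 9.37% of all genes. With IL-6 2 rose and 5 fell, beside 5% and 9.07%. Arsb fell by 2.10 and 2.13 in these cultures.

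Of 16 other lysosomal membrane proteins, 2 rose and 1 fell in EL-4, beside 6.42% and 4.4% of all genes. In 4T1 1 rose and 1 fell, beside 6.83% and 5.44%. In each of MCA203 and C26-GM infiltrate 2 rose, beside rises of 5.01% and 4.26% of all genes. None changed in C26-GM spleen, beside 2.32% and 3.83%. Gpnmb, a glycoprotein of phagocytes and pigment cells, read 11.56, 11.97 and 11.50 in EL-4, against 5.01, 4.99 and 4.81 in healthy spleen, a rise of 6.74. Its other rises were 1.33 in 4T1 (0.75 with the mean of its probe sets), 1.67 in MCA203, 1.96 in C26-GM infiltrate, 4.54 with G-CSF and 3.83 with IL-6. Clcn7, the chloride-proton exchanger that works beside the pump, rose by 2.11 in EL-4, 1.06 in MCA203 and 1.01 in C26-GM infiltrate, and the last was 0.91 and under 2-fold without the third C26-GM tumor array, as MCA203 was, at 0.98, without its replicate 2. With the mean of all probe sets the MCA203 and C26-GM values were 0.85 and 0.72.

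Of 9 cathepsin inhibitors, 2 rose in every comparison with a reference except the culture with IL-6, where 3 rose. In each comparison 1 or 2 fell. Of all genes, 2.32% to 6.83% rose and 3.83% to 9.37% fell in these comparisons. Cystatin B (Cstb), which inhibits cysteine cathepsins outside the lysosome, read 12.47, 12.55 and 12.53 in EL-4 and 11.66, 11.64 and 11.76 in MCA203, against 10.51, 10.35 and 10.55 in healthy C57BL/6 spleen. It rose by 2.04 and 1.21 there, by 1.45 in 4T1 and 1.93 in C26-GM infiltrate, and by 2.57 with G-CSF and 2.16 with IL-6. Of the 6 genes of lysosomal sorting, Igf2r, the large mannose 6-phosphate receptor, rose by 1.45 in EL-4, 1.69 in 4T1 and 1.27 in C26-GM infiltrate. Sort1, the sorting receptor sortilin, fell by 3.23 in 4T1, 2.59 in MCA203 and 1.28 in EL-4, where the mean of its probe sets gave -0.48.

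Set against each other, the infiltrates and the C26-GM spleen differed in a few of the 46 genes. Between C26-GM infiltrate and C26-GM spleen 4 rose and 1 fell, beside 2.79% and 3.36% of all genes: Atp6v0d2, Ctsk, Ctsl and Atp6v0a1 rose and Ctsf fell. With the mean of all probe sets 3 of these were not called, Ctsl at 0.58, Atp6v0a1 at 0.72 and Ctsf at -0.99. Without C26-GM tumor replicate 1 the count was 3, and without C26-GM spleen replicate 2 Atp6v0a1 was at 0.89. Between 4T1 and C26-GM infiltrate 4 rose and 1 fell, beside 8.95% and 3.9%: Ctsk, Ctsf, Atp6v0e2 and Ctso rose and Atp6v0a1 fell. Between EL-4 and MCA203 5 rose and 1 fell, beside 3.88% and 1.4%: Atp6v0d2, Ctsk, Atp6v0a1, Ctse and Ctsd rose and Ctsw fell. The median differences of the 46 genes were 0.028, -0.027 and 0.157 in these 3 comparisons, beside 0.005, -0.115 and -0.084 over all genes.

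Between the cultures, IL-6 against G-CSF, limma called none of the 46 genes in either direction, beside 0.456% and 0.198% of all genes. At an unadjusted p below 0.05 in the same test there were 17 of the 46, of which 3 were higher and 14 lower with IL-6. The share of all genes at that unadjusted p is not given here, so this count cannot be set against all genes. The median difference of the 46 genes was -0.177, with 36 of 46 negative, beside -0.005 over all genes. Ctsa at -0.61 (adjusted p = 0.0243) and Ctsb at -0.54 (adjusted p = 0.0460) passed the adjusted p under 2-fold. The widest was Atp6v0d2, at -1.70 (95% interval -2.70 to -0.69, adjusted p = 0.103), and it was called under 4 alternatives, at -1.69 to -2.09. With the 4 narrow arrays left out, each culture has 1 array, and 10 genes were called with G-CSF and 7 with IL-6 against fresh marrow, all from a fit that takes the spread of the other groups.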

How the data were processed

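CD11b+ cells of 10 groups with 3 samples each were measured on 30 Affymetrix mouse arrays. The deposited values are log2 intensities from RMA (background correction, quantile normalisation and summary per probe set), per the submitters' processing notes; its version is not given there. RMA values are relative, and dim probe sets understate changes. The deposited arrays did not share 1 distribution: over all probe sets their medians were 4.85 to 5.15 and their SDs 1.96 to 2.28. Of 45101 probe sets, 34958 were annotated to 1 gene symbol, 932 to several and 9211 to none. Each of 18194 genes was read by its brightest 1-symbol probe set, by the mean of the 30 arrays, and 24 of the 46 genes had several such sets.

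All 30 arrays were fitted with limma 3.58.1 in R 4.3.3 (lmFit and eBayes, a mean per group), with 12 comparisons, each adjusted by Benjamini-Hochberg over all genes. A gene was called at an adjusted p below 0.05 and at least 2-fold. The number of arrays limits the precision. The code was tested on simulated data. Tables were made with Python 3.11.15, numpy 2.4.6 and pandas 2.3.3. Groups follow the titles and strain labels. No pairing of replicate numbers was used.

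The 46 genes and the lists of other genes were chosen with earlier results of these data known. Values per array are given for Tfeb, Lamp1, Lamp2, Ctsb, Ctsd, Ctsk, Ctsl, Ctss, Atp6v0d1 and Atp6v0d2 and, in each comparison, for the 5 called genes with the largest changes whose groups do not overlap; values of further genes were added after they were seen. Alternatives covered scaling, array weights, filters, the choice of probe set, the prior, thresholds, a replicate block and leaving out arrays. The 10 measured housekeeping genes differed on average by -0.188 to 0.193 between the groups compared. Listed genes not measured by a 1-symbol set were not analysed here.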

Additional observations from a re-analysis of the deposited data

Results flagged for a closer look

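The mean effect of the C57BL/6 tumors on Ctsw exceeded that of the BALB/c tumors by 2.86 on the log2 scale, a difference tested by its own term in limma (SE 0.34, adjusted p = 1.29e-06). All 3 arrays of EL-4 and of MCA203 lay above their healthy spleen, and all 3 arrays of 4T1 and of C26-GM infiltrate lay below theirs. The value was 2.73 to 2.93 over the 30 alternatives. NK and T cell marker genes moved the same way, as given above, and their part was not tested.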

How the results depend on the processing

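Of the 63 called changes of the 46 genes over 12 comparisons, 50 kept their call and direction under every alternative, 13 lost the call under at least 1 and none reversed. No share of all genes is given here for the counts under the alternatives, so those counts cannot be set against all genes. Without a minimum fold the counts of called genes were 9 in C26-GM spleen (2 with it), 20 in C26-GM infiltrate (7), 14 in 4T1 (7), 18 in EL-4 (8), 16 in MCA203 (6), 10 for C26-GM infiltrate against C26-GM spleen (5), 20 for 4T1 against C26-GM infiltrate (5), 18 for EL-4 against MCA203 (6), 17 with IL-6 (6), 23 with G-CSF (10), 2 for IL-6 against G-CSF (0) and 4 in the strain test (1). With the mean of all probe sets they were 1 in C26-GM spleen, 2 for C26-GM infiltrate against spleen and 3 in the strain test, where Ctsl changed from -0.19 to 1.0 and was called: its second probe set gave 2.19 there, and the cause was not tested. For IL-6 against G-CSF the count was 1 with quantile normalisation repeated over the compared arrays, with array weights and with a term for the culture array set, each time Atp6v0d2. Leaving out 1 array at a time gave 2 to 3 in C26-GM spleen, 7 to 8 in C26-GM infiltrate, 7 in 4T1, 7 to 8 in EL-4, 4 to 6 in MCA203, 3 to 6 for C26-GM infiltrate against spleen, 5 to 6 for 4T1 against C26-GM infiltrate, 6 to 7 for EL-4 against MCA203, 6 to 7 with IL-6, 9 to 10 with G-CSF, 0 to 1 for IL-6 against G-CSF and 1 in the strain test. With the replicate block MCA203 had 5 called genes, since Atp6v0d2 then had an adjusted p of 0.0563, and no other count changed. In no comparison were the correlations between the deviations of same-numbered arrays all over 0.1: they were 0.06 to 0.47 for C26-GM infiltrate against C26-GM spleen, 0.09 to 0.17 for MCA203 against spleen and -0.85 to 0.79 for IL-6 against G-CSF. In 2 of 11 comparisons, MCA203 against spleen and 4T1 against C26-GM infiltrate, all 6 arrays correlated best with their own number. Chosen after seeing the data, leaving out the 4 narrow culture arrays gave 7 with IL-6 and 10 with G-CSF, and leaving out replicate 3 of both C26-GM groups gave 2 in C26-GM spleen and 7 in C26-GM infiltrate. Of 159 called changes in the lists of other lysosomal genes and of osteoclast markers, 101 kept their call under every alternative. Dim genes such as the placental cathepsins may change without passing the test.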

Other observations

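Between the healthy spleens, which the study did not compare, 3 of the 46 genes differed by at least 2-fold in their means (6.52%, beside 1.6% of all genes). Ctse averaged 7.83 in C57BL/6 and 10.94 in BALB/c spleen, Ctsf 5.82 and 6.93, and Atp6v0e2 4.21 and 5.33. These differences were not tested, and strain cannot be told apart from other differences between the mice.

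The second probe set of Ctsl differed by 2.88 and 2.05 in the C57BL/6 infiltrates of EL-4 and MCA203, but by 0.25 and 0.31 in the BALB/c infiltrates of 4T1 and C26-GM, where the brighter set differed by 3.09 and 2.68.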
